A study of Mus musculus with 14 samples.

Results

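The peaks described here are stretches of H3K27me3 that were low in mouse embryonic stem cells (mESCs) with the Hoxa deletion, on chromosomes other than the one that carries Hoxa. They were chosen by a rule that used the measured levels. A peak entered if it lay on an autosome other than chromosomes 6 and 8, if its mean raw count over the 7 libraries was at least 20, and if its mean level in the Hoxa deletion was at most 0.6 of the mean over the other 4 libraries. Levels are given in CPM, which is the count of a peak divided by the library total and multiplied by 1000000. Of 61796 peaks on 17 autosomes that could enter, out of 74458 in the whole table, 982 did, or 1.59%. The mirror set, with a ratio of at least 1/0.6, held 1829 peaks (2.96%). Since the rule chose the members on the Hoxa deletion, their levels in that deletion are a description and carry no test.

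The study deleted anchors of Polycomb loops in mESCs and asked whether H3K27me3 changed elsewhere. H3K27me3 was profiled by Cut&Tag, in which a transposase tethered to an antibody inserts adapters beside the mark. All cells were G4 mESCs, a hybrid of 129/Sv and C57BL/6, grown with LIF on CD1 feeder cells, and all carried a homozygous CRISPR-Cas9 deletion. In the Hoxa deletion (3 libraries) the genes from Hoxa2 to Hoxa13 were removed, and the other cells lacked the anchor at Wnt6 (2 libraries) or that at Hmx1 (2 libraries). The table has no unedited cells, so a low level in the Hoxa deletion is low relative to the other 2 deletions. In the study each deletion appears as a single clone, while the labels name no clones, so deletion and clone cannot be told apart. The labels do not say whether libraries came from separate cultures, and p-values then measure only the spread between these libraries.

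H3K27me3 is laid down by Polycomb repressive complex 2 and marks silent developmental genes, where it centres on CG-rich promoters in mESCs. It also covers weaker stretches between and within genes, and it sits on the silent allele of some imprinted genes, which are expressed from the chromosome of only one parent. The table does not separate the alleles of the hybrid cells. A lower count at a peak cannot tell fewer cells with the mark from less mark in each cell.

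Promoter sequence bears on the members, since marked promoters of mESCs are commonly rich in CG. Windows of 250 bases before to 50 bases after each gene start were taken from RefSeq (GRCm38.p6). A CG pair was searched as the letters CG, which read the same on both strands. The windows that members overlapped, 30 windows of 29 genes, held a median of 7.5 CG pairs (1 to 44), and 43.3% held at least 10. The windows that eligible peaks overlapped, 12493 in all, held a median of 21, and 81.3% held at least 10. All 28089 windows had a median of 7, and 44.2% held at least 10. The members' windows were thus close to windows at large in CG and below those of marked promoters. Eligible peaks as weak as the members were not set apart, so the comparison is not at like level. The windows of the 2 strongest members that overlapped a promoter and that of Rgs4, a weak member, are shown with CG in capitals. Each of them held more CG pairs than the members' median of 7.5, so they are not typical of the members in CG. The window of Arl4c, at chr1:88702142-88702441 on the minus strand, held 44 CG, a count reached by 2.35% of all windows. That of Sema3e, at chr5:14025026-14025325 on the plus strand, held 11 (42.1% of windows have as many), and that of Rgs4, at chr1:169747593-169747892 on the minus strand, held 13 (38.6%).
Arl4c: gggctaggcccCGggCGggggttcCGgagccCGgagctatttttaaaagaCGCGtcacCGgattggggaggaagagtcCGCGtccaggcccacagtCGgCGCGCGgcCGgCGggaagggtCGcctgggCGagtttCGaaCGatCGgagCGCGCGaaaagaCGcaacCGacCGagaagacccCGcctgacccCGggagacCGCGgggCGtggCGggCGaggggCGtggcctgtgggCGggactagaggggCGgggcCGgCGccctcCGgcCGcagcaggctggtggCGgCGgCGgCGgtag
Sema3e: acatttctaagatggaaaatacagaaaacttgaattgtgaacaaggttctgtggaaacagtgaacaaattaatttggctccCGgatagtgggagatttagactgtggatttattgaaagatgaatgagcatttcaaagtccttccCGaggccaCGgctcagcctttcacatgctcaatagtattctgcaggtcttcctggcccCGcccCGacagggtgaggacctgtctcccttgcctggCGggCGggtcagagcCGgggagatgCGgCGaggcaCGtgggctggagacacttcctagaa
Rgs4: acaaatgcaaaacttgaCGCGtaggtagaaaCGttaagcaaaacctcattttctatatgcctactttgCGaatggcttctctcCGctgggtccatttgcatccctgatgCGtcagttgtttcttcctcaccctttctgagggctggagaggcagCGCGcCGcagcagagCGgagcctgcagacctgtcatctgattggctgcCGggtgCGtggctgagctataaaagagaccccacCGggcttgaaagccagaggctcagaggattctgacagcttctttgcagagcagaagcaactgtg

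A member at H19, described below, covers the microRNA hairpin that is cut from the H19 transcript. Its mature arms lie on the minus strand at chr7:142577112-142577133 (5p) and chr7:142577078-142577099 (3p) and are shown to place that peak on the gene. Capitals mark the seed, bases 2 to 8, which differs between the arms.
mmu-miR-675-5p: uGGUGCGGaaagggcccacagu
mmu-miR-675-3p: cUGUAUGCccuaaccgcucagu

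Libraries differed in depth, with totals of 6016500 to 36563541 counts over the peaks. In the stretch from Hoxa2 to Hoxa13, the Hoxa deletion libraries kept 0.0997% to 0.164% of the level in the others, and the Wnt6 and Hmx1 deletion libraries kept at most 1.88% and 0.394% over their own deleted genes. Feeder cells carry all 3 loci intact, but their H3K27me3 there was not measured. None of the 64 eligible peaks at genes of a list of fibroblast genes was a member, and their summed level was 2111 to 2158 CPM in the Hoxa deletion and 2097 to 2142 CPM in the others. None of the 53 eligible peaks at pluripotency genes was a member either. Their summed level was 729 to 760 CPM in the Hoxa deletion and 530 to 569 CPM in the others, and at 5 of 16 genes on these chromosomes, Dppa2, Dppa4, Lin28a, Sall4 and Tdgf1, no eligible peak was present. A few genes carried this sum. Tbx3 had 210 to 221 CPM in the Hoxa deletion and 118 to 136 CPM in the others. The Hoxa deletion libraries were also above all others at Esrrb, Klf4, Nr5a2, Prdm14 and Tfcp2l1. At Fgf4, Klf5, Pou5f1, Sox2 and Utf1 the groups overlapped, so the sum does not describe every gene of the list. The part of these differences between deletions in the members' levels was not tested.

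Most members were weak and narrow, and lay close to the threshold. Their median level was 1.09 CPM in the Hoxa deletion, 2.03 CPM in the Wnt6 deletion and 2.17 CPM in the Hmx1 deletion, where all eligible peaks had medians of 4.07, 3.97 and 3.85 CPM. The median ratio of the Hoxa deletion to the others was 0.549. It was at most 0.5 for 236 members (24.0%), at most 0.4 for 43 and at most 0.25 for 11. No member had a ratio between 0.25 and 0.3. The plot of ratio against level shows these 11 below the other members in ratio. In level not all stand apart, as those in Atp8b4 and near Gm22936 were as weak as most members.

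**Figure D1:**
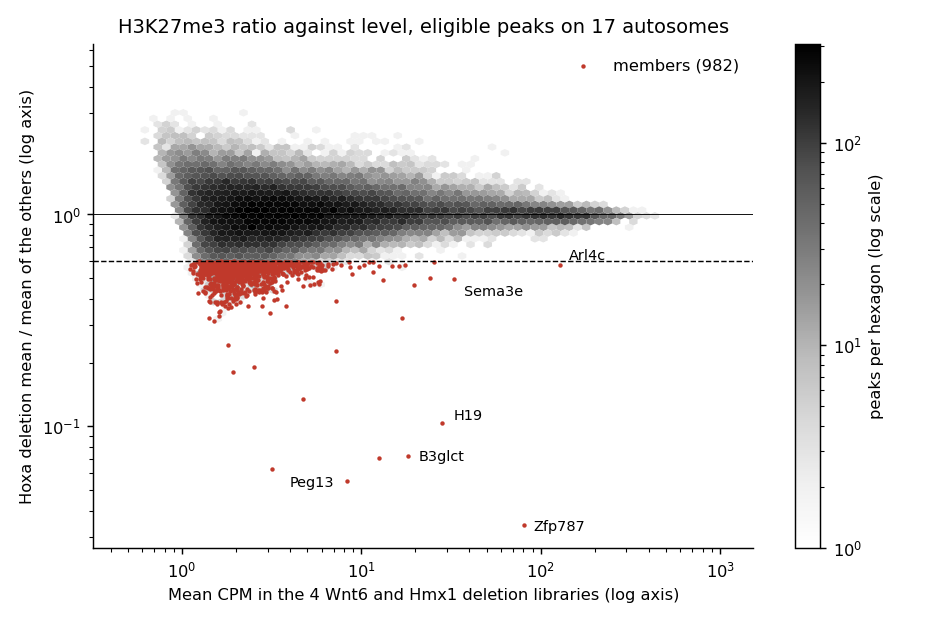
Ratio of the mean CPM of the Hoxa deletion to the mean of the other 4 libraries (y, log axis) against the mean CPM of those 4 (x, log axis). Grey hexagons count all eligible peaks with a ratio above 0, red points are the 982 members, and the dashed line is the threshold of 0.6. Most members crowd just under the line at 1 to 6 CPM, while Zfp787, H19, Peg13 and B3glct lie far below it.

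The share of peaks that entered depended on their level. In the class with a mean count of 20 to 40, 693 of 14737 eligible peaks (4.70%) were members. The share was 1.15% at 40 to 100 counts, 0.152% at 100 to 300 and 0.0605%, or 6 of 9913 peaks, at 300 or more. The mirror set held 5.15%, 2.98%, 1.85% and 1.27% of the same classes. At 20 to 40 counts the numbers of low and high peaks were thus alike, and at higher counts the high peaks were more numerous. The median member held 7, 34 and 17 counts in Hoxa deletion replicates 1 to 3.

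Members were also narrower than other peaks. Their median width was 324.5 bp (211 to 2681 bp) against 488 bp for eligible peaks and 421 bp for the mirror set. Only 118 of 982 members were wider than 500 bp, against 48.3% of eligible peaks, and 9 were wider than 1 kb. The median mean count was 31.1 in members, 73.4 in eligible peaks and 47 in the mirror set. Widths were not compared among peaks of like level, so width cannot be told apart from level here.

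**Figure D2:**
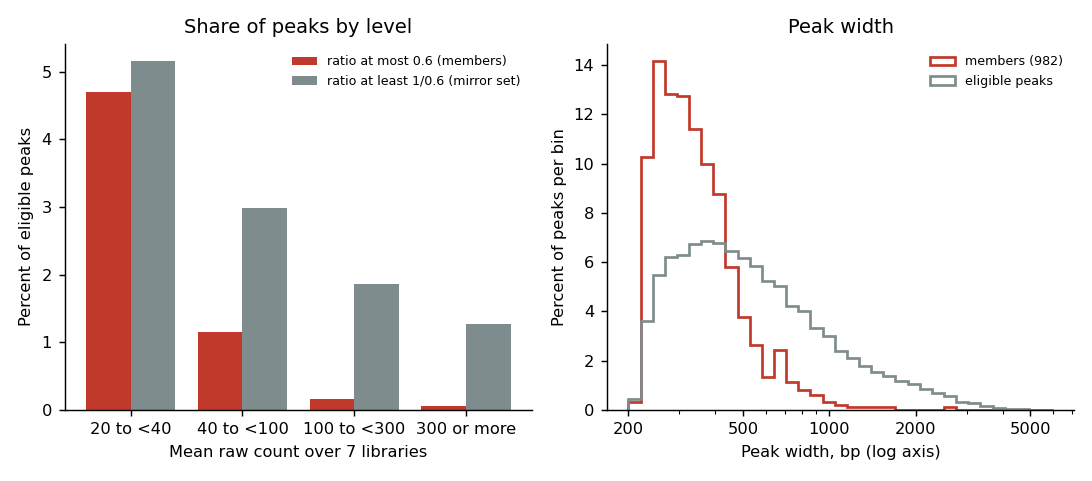
Left, percent of eligible peaks (y) in 4 classes of mean raw count (x) that were members (red) or in the mirror set (grey). Right, peak width in bp (x, log axis) against the percent of peaks per bin (y) for members (red) and eligible peaks (grey). The member share drops from 4.70% to 0.0605% with level, and members pile up below 500 bp.

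Members lay away from gene starts, again beside peaks of all levels and not beside peaks as weak. Of 953 members on chromosomes with promoter windows, which leaves out chromosome 18, 28 (2.94%) overlapped one, against 16.3% of eligible peaks and 13.7% of the mirror set. The median distance to the nearest window was 44356 bp, against 13491.5 bp for eligible peaks. Of all members, 546 (55.6%) overlapped a gene and 430 (43.8%) a protein-coding gene, against 65.2% and 53.9% of eligible peaks. Between chromosomes, the share of eligible peaks that were members ranged from 0.794% on chromosome 19 to 2.41% on chromosome 14, and the median ratio of all eligible peaks was at most 1.07.

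In 584 members (59.5%) all 3 Hoxa deletion libraries lay below all 4 others. Among all eligible peaks 5.05% did so, and 10.2% had all 3 above. The rule used this contrast, so nothing is read from the member count. Single libraries weighed on membership. Hoxa deletion replicate 1, the shallowest of its group, was the lowest of the 3 in 609 members (62.0%, against 40.6% of eligible peaks), and Hmx1 deletion replicate 1, the shallowest of all, was the highest of the other 4 in 455 (46.3%, against 28.9%). Without Hoxa deletion replicate 1 the rule found 907 peaks, of which 538 were members, and without replicate 2 or 3 it found 2050 or 1514. The members that were kept whichever of the 7 libraries was left out numbered 283 (28.8%). Of these, 205 also had no overlap between the groups and lay at or under 0.6 of each other deletion taken alone, with a median mean count of 30.4 and a median width of 318 bp. All these conditions reuse the contrast of the rule, so nothing is read from the 283 or the 205.

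At the threshold itself, the 3 members just inside lay near Gm40948, near Gm28500 and in Krt76, a keratin gene, with 0.749, 0.996 and 1.17 CPM in the Hoxa deletion and 1.25, 1.66 and 1.96 CPM in the others. Just outside lay peaks near Gm35864, near Gm8048 and in Klhdc9, with 1.92, 1.48 and 0.955 CPM against 3.20, 2.47 and 1.59 CPM. All 6 ratios lay within 8e-05 of the threshold, and their Hoxa deletion libraries spread by 0.127 to 0.884 CPM (SD, n = 3).

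The member with the lowest ratio, and with the largest difference in mean CPM, was a wide peak in Zfp787, a zinc finger gene. It spanned 1690 bp at chr7:6131781-6133471. Its level was 2.08, 3.24 and 2.92 CPM in the Hoxa deletion, 82.4 and 79.6 CPM in the Wnt6 deletion and 78.3 and 81.9 CPM in the Hmx1 deletion. All Hoxa deletion libraries were low, the other 4 were high and alike, and the ratio was 0.0341. The 4 eligible peaks within 50 kb were not members and had ratios of 0.841 to 1.14, so the low level was confined to this peak among those measured there.

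Of the 11 members with a ratio of at most 0.25, 4 lay at the imprinted genes H19 and Peg13. H19 is a noncoding RNA expressed from the maternal chromosome, beside Igf2, and is controlled by a methylated region upstream of it. Its 3 eligible peaks within 4.17 kb, from 142576517 to 142580687 on chromosome 7, were all members. This stretch ran between its outer members, with no other member within 50 kb by definition. The peak at chr7:142577642-142578872 had 2.66, 3.20 and 2.92 CPM in the Hoxa deletion, 29.7 and 29.3 CPM in the Wnt6 deletion and 26.1 and 28.1 CPM in the Hmx1 deletion. The upstream peak, 1931 bp from the gene at chr7:142580077-142580687, had 1.27, 0.820 and 0.585 CPM, then 12.7 and 11.8, then 12.1 and 13.5 CPM in the same order. The peak at chr7:142576517-142577227, which covers the miR-675 hairpin printed above, had 6.12, 5.08 and 5.13 CPM, then 16.1 and 17.9, then 16.5 and 16.9 CPM. In each of the 3 the groups did not overlap, beside 5.05% of all eligible peaks, and the ratios were 0.103, 0.0711 and 0.323. The rule used this contrast, so the separation is a description. The other 61 eligible peaks in the 300 kb around them held no member, with ratios of 0.697 to 1.36, and summed to 926 to 960 CPM in the Hoxa deletion and 922 to 1008 CPM in the others.

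Peg13 is an imprinted noncoding RNA that lies inside Trappc9, a gene for a vesicle trafficking protein. Its 2 eligible peaks were both members. The stronger, at chr15:72809930-72810752, had 0.231, 0.234 and 0.910 CPM in the Hoxa deletion, 7.91 and 8.75 CPM in the Wnt6 deletion and 8.14 and 8.57 CPM in the Hmx1 deletion. The other, at chr15:72809218-72809605, had 0.231, 0.234 and 0.130 CPM, then 2.50 and 3.31, then 3.82 and 3.02 CPM. The Hoxa deletion libraries held only 2, 6 and 14 counts in the first and 2, 6 and 2 in the second, so these low levels are known only roughly. There was no other eligible peak within 50 kb.

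**Figure D3:**
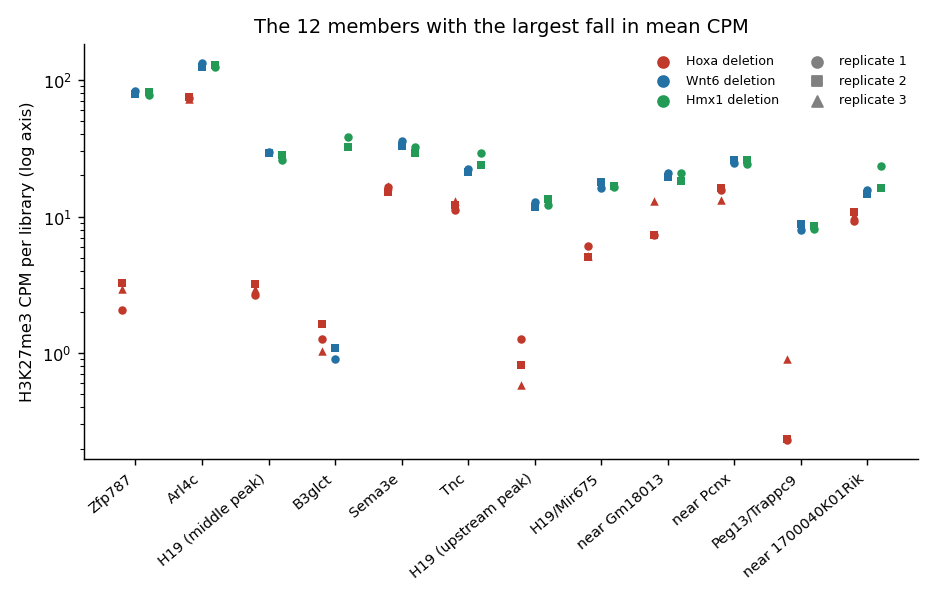
H3K27me3 CPM (y, log axis) in each of the 7 libraries for the 12 members with the largest difference in mean CPM (x). Colour gives the deletion and shape the replicate. The Hoxa deletion points of Zfp787, H19 and Peg13 lie far below the other 4, those of Arl4c, Sema3e and Tnc about a factor of 2 below, and at B3glct the Wnt6 deletion points lie with the Hoxa deletion points.

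Arl4c, which encodes a small GTPase of the ARF family, held the strongest and widest member, 2681 bp at chr1:88700139-88702820 over its promoter. Its level was 74.3, 74.5 and 72.1 CPM in the Hoxa deletion, 134 and 124 CPM in the Wnt6 deletion and 125 and 128 CPM in the Hmx1 deletion. The groups did not overlap, and the Hoxa deletion mean of 73.6 ± 1.30 CPM (SD, n = 3) was 0.576 of the others. Another 2 members lay 20311 and 40369 bp from the gene, with ratios of 0.460 and 0.576.

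Sema3e, a semaphorin that guides axons and vessels, had a member over its start at chr5:14025180-14026150. Its level was 16.4, 15.2 and 16.7 CPM in the Hoxa deletion, 35.9 and 33.1 CPM in the Wnt6 deletion and 32.2 and 29.3 CPM in the Hmx1 deletion. In Tnc, which encodes the matrix protein tenascin C, the member at chr4:64016844-64018216 had 11.1, 12.2 and 12.9 CPM, then 22.2 and 21.2, then 29.1 and 23.8 CPM in the same order. Both had ratios near 0.5 (0.494 and 0.501) and no overlap. Ptpdc1, which encodes a phosphatase, had a lower ratio of 0.226 at chr13:48586039-48586962, with 1.96, 1.95 and 0.975 CPM in the Hoxa deletion, 7.41 and 8.12 CPM in the Wnt6 deletion and 6.15 and 7.13 CPM in the Hmx1 deletion. Another 2 members with a ratio of at most 0.25 were weak. That in Atp8b4, a gene for a phospholipid-transporting ATPase, had 0.116, 0.664 and 0.260 CPM in the Hoxa deletion and 1.47 to 2.49 CPM in the others, and that near Gm22936 had 0.231, 0.625 and 0.455 CPM against 1.16 to 2.10 CPM. Near Gm18013 the libraries of the Hoxa deletion differed among themselves, with 7.28, 7.38 and 13 CPM, below the 18.1 to 20.8 CPM of the others. The peaks near Pcnx and 1700040K01Rik, with ratios of 0.595 and 0.574, complete the 12 with the largest difference in level.

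Only 28 members had a mean count of at least 100, of 24369 such eligible peaks (0.115%). In 27 of them all Hoxa deletion libraries lay below all others, beside 5.05% of all eligible peaks at any level. At or under 0.6 of each other deletion taken alone lay 17. The rule used this contrast, so nothing is read from either count. Among the 28, the ratio was under 0.4 in 6, which were the peaks of Zfp787, H19 (3), B3glct and the one near Gm8176, and 0.4 to 0.6 in 22. The exception to the separation was B3glct, described below.

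Members that lay together formed runs. There were 20 runs of 3 or more members less than 50 kb apart, with 67 members in all, and 215 members had another within 50 kb. Runs were not counted for the mirror set or for other eligible peaks. Of eligible peaks, 58.6% had the next peak of any kind within 5 kb, against 40.8% of members. The runs are thus not read as clustering of the low levels. In Slc14a2, a urea transporter gene on chromosome 18, 6 of 8 eligible peaks from 78344619 to 78376675 were members. Summed over the 6, the level was 15.1, 14.6 and 11.3 CPM in the Hoxa deletion, 26 and 28.8 CPM in the Wnt6 deletion and 28.6 and 28.2 CPM in the Hmx1 deletion. The groups did not overlap in any of the 6, beside 5.05% of all eligible peaks, and the ratios were 0.459 to 0.535. The rule used this contrast, so nothing is read from the 6. The run at the potassium channel gene Kcna10 took 6 of 13 eligible peaks over 100.9 kb of chromosome 3. They summed to 6.82, 10.5 and 7.86 CPM in the Hoxa deletion and 13.7 to 16.7 CPM in the others. At 2610035D17Rik, a noncoding RNA on chromosome 11, 4 of 7 peaks were members, with 6.12, 8.24 and 6.37 CPM against 10.9 to 16.3 CPM. Outside the Kcna10 and 2610035D17Rik runs and within 150 kb of their centres, the eligible peaks held no member and had median ratios of 0.810 and 0.850. Around Slc14a2 they held 1 of 8, with a median of 0.912. A run ended where the next member was at least 50 kb away, and its span was cut at its outer members. Neighbours within 50 kb could thus not be members, so nothing is read from these shares or from the contrast with neighbours.

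**Figure D4:**
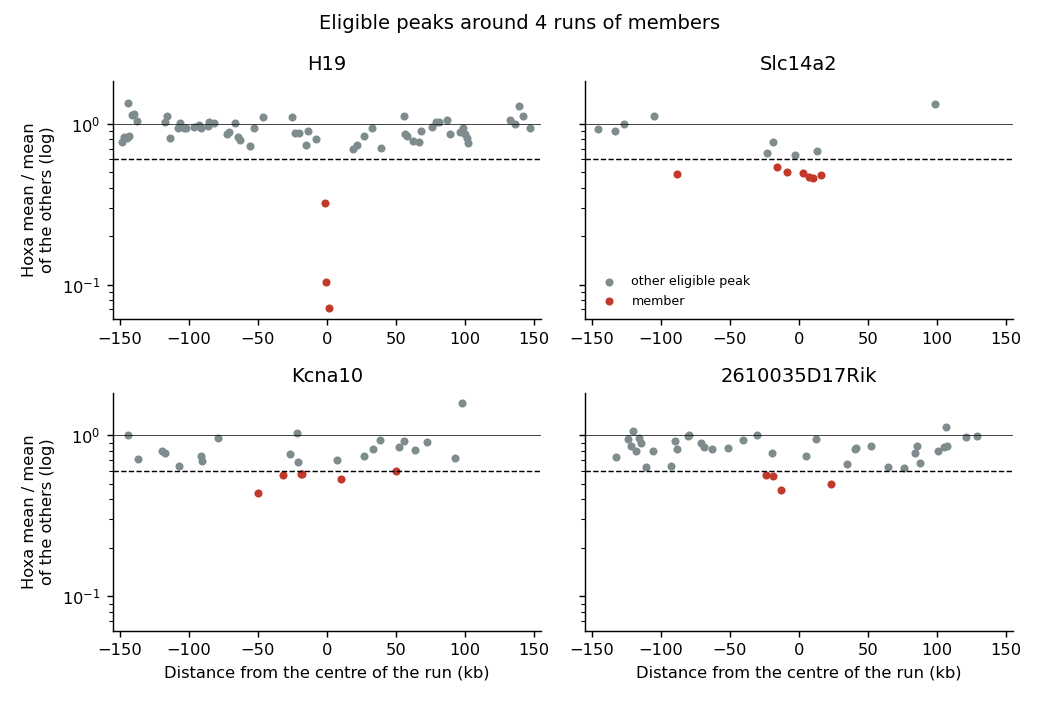
Ratio of the Hoxa deletion mean to the mean of the other 4 libraries (y, log axis) for eligible peaks within 150 kb of the centre of 4 runs (x, distance in kb). Members are red, other eligible peaks grey, and the dashed line is 0.6. Runs were bounded by their outer members, with no other member within 50 kb by definition. At H19 the 3 members lie far below their neighbours, whereas at Slc14a2, Kcna10 and 2610035D17Rik the members lie between 0.440 and 0.597, and their neighbours spread from just above the line to above 1.

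Gene lists were read by counting members among the eligible peaks in or within 5 kb of their genes, beside the 1.59% over all eligible peaks. That share fell with level, from 4.70% at 20 to 40 counts to 0.0605% at 300 or more. The lists differ in level and were not compared at like level, so their shares are not read as differences between kinds of genes. Imprinted genes had 8 members of 309 eligible peaks (2.59%), at 6 of 63 genes. Besides H19, Peg13 and Trappc9, these were Grb10, a growth factor receptor adaptor, Kcnk9, a potassium channel, and Wt1, a zinc finger transcription factor. The list was chosen with H19 and Peg13 known, so its share is not independent of them, and the median ratio over its 309 peaks was 0.982. The Grb10 peak had 2.89, 2.89 and 2.53 CPM in the Hoxa deletion, 4.31 and 3.47 CPM in the Wnt6 deletion and 5.82 and 5.74 CPM in the Hmx1 deletion. That of Wt1 had 0.924, 0.820 and 0.845 CPM, then 2.50 and 1.72, then 2.83 and 2.33 CPM, and neither showed overlap. That of Kcnk9 overlapped, with 1.76 CPM in Hoxa deletion replicate 2 and 1.43 CPM in Hmx1 deletion replicate 2.

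Developmental transcription factors, the best known carriers of H3K27me3, had 11 members of 1187 eligible peaks (0.927%). Their members were weak beside the other peaks of these genes, with a median of 3.67 CPM in the other 4 libraries against 23.2 CPM over the list. The strongest lay in Gata4, a factor of endoderm and heart, with 9.82, 10.6 and 7.28 CPM in the Hoxa deletion, 12.4 and 17.1 CPM in the Wnt6 deletion and 15.5 and 19.7 CPM in the Hmx1 deletion. Pax3, a factor of neural crest and muscle precursors, held 3 members of 10 eligible peaks in 37.8 kb. The strongest had 4.97, 6.41 and 6.56 CPM, then 10.6 and 11.5, then 10.5 and 8.95 CPM. The groups did not overlap at either gene, beside 5.05% of all eligible peaks, and the rule used that contrast. The other members of the list lay at Tbx5, Tbx15, Tbx18, Pou3f1 and Nkx2-2os. The study describes a loop between Pax3 and the Wnt6 anchor, which lie on the same chromosome. All 3 Pax3 members were at 0.541 or less of the Wnt6 mean but at 0.616 to 0.745 of the Hmx1 mean. They thus met the rule only with the Wnt6 deletion libraries in the mean. The part of the Wnt6 deletion in their levels was not tested.

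Signalling ligands and receptors had 8 members of 626 peaks (1.28%), at Ephb1, Fgfr2 and Robo2. Ion channels and neurotransmitter receptors had 14 of 1185 (1.18%), among them Kcnd3, Htr2a and Cacna1s. Olfactory and vomeronasal receptors had 7 of 180 (3.89%). The 180 peaks were weak, with a median of 2.92 CPM in the other 4 libraries, beside 3.90 CPM over all eligible peaks. The 7 members had a median of 1.90 CPM, and 3 of them showed no overlap, beside 5.05% of all eligible peaks. The rule used that contrast, so nothing is read from the 3. Zinc finger genes had 2 of 611 (0.327%), Zfp787 and Zfp536, and germline genes 1 of 99, at Dmrtb1. Polycomb subunit genes, with 94 eligible peaks, and clustered protocadherins, with 106, had none.

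The difference between the Wnt6 and Hmx1 deletions was not used by the rule, which took only the mean of the 4 libraries, and was tested by edgeR over 74441 peaks. A peak high in 1 deletion alone can, however, enter through that mean. Of the 982 members, 3 (0.305%) were called at an adjusted p under 0.05 and an absolute log2 fold change over 1, beside 0.0887% of all tested peaks. All 3 were lower in the Wnt6 deletion, beside 0.0578% of all peaks in that direction. At an unadjusted p under 0.05 there were 31 members (3.16%), beside 5.66% of all peaks. The median log2 fold change of Wnt6 over Hmx1 was -0.04 over the members and 0.01 over all tested peaks.

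The 3 called members lay in B3glct, which encodes a glucosyltransferase, and in the nearby Fry, on chromosome 5, which also carries Hmx1. The B3glct peak, 1513 bp at chr5:149737831-149739344, had 38.2 and 32.3 CPM in the Hmx1 deletion, 0.902 and 1.09 CPM in the Wnt6 deletion and 1.27, 1.64 and 1.04 CPM in the Hoxa deletion. Its log2 fold change of Wnt6 over Hmx1 was -5.12 (SE 0.236), and its adjusted p in edgeR was 2.09e-26. The Fry peak at chr5:150165208-150165734 had 8.31 and 9.50 CPM in the Hmx1 deletion and 0.462 to 0.780 CPM in the other 5 libraries (log2 fold change -4.23, standard error 0.367, edgeR adjusted p = 1.61e-13). That at chr5:150163555-150163949 had 4.16 and 5.23 CPM and 0.234 to 0.809 CPM (log2 fold change -4.09, standard error 0.518, edgeR adjusted p = 1.08e-07). These 3 peaks were high in the Hmx1 deletion only, and their mean in the Hoxa deletion was above that in the Wnt6 deletion. They could enter only through the high Hmx1 level in the mean of the 4 libraries, so this difference was fixed by the rule and is no independent result. Of the 11 members with a ratio of at most 0.25 they make up 3.

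None of the other members among the 12 with the largest differences was called between the Wnt6 and Hmx1 deletions. For Zfp787 the log2 fold change of Wnt6 over Hmx1 was -0.03 (SE 0.113), for Arl4c -0.01 (SE 0.101), for the strongest H19 peak 0.07 (SE 0.146) and for the stronger Peg13 peak -0.05 (SE 0.239), with adjusted p of 0.994, 0.999, 0.985 and 0.996 in edgeR. For Sema3e it was 0.13 (SE 0.136) and for Tnc -0.30 (SE 0.150), with adjusted p of 0.956 and 0.882 in edgeR. The widest gap among them was near 1700040K01Rik, at -0.39 (SE 0.170, adjusted p of 0.847 in edgeR). Of all members, 476 (48.5%) lay at or under 0.6 of the Wnt6 mean and also of the Hmx1 mean. Another 212 did so for Wnt6 alone and 294 for Hmx1 alone. In 5 members, B3glct, the Fry pair, Pld1 and one near Gm45940, the Hoxa deletion mean was above the Wnt6 mean, and in 1, near Gm5455, it was above the Hmx1 mean.

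**Figure D5:**
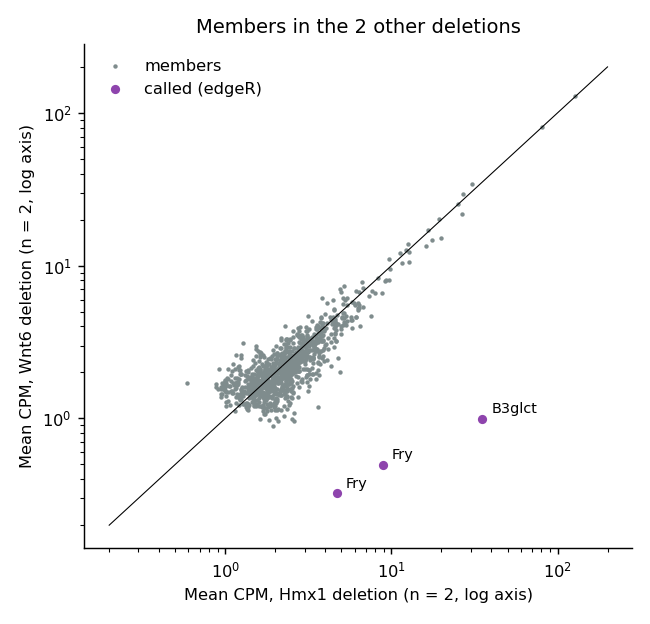
Mean CPM of the members in the Wnt6 deletion (y, log axis, n = 2) against that in the Hmx1 deletion (x, log axis, n = 2). The line marks equal levels and purple points are the 3 called by edgeR. Members follow the line with a wide spread below 3 CPM, and only B3glct and the Fry pair lie far under it.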

How the data were processed

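The authors profiled H3K27me3 by Cut&Tag and deposited raw counts per peak, without normalization, in 1 table with 7 H3K27me3 columns. The 7 IgG libraries were not analysed here. The submitters' processing notes name Trimmomatic, Bowtie2, SAMtools, Picard, MACS2 and deepTools and the build mm10. How the peak list was made, whether duplicates were removed and whether reads or fragments were counted is not given in the sources used here. Positions are as deposited, and the convention for the start is not stated. Columns were matched to samples by title, and groups come from the titles.

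The members and gene lists were chosen with earlier results of these data known. Genes within reach of peaks came from a RefSeq table of GRCm38.p6, which has no exons, so exon or intron is not given. A peak has the genes it overlaps, or otherwise the nearest gene. CPM used library totals over all peaks. The named peaks are the 12 members with the largest difference in mean CPM, the 10 with the lowest ratio at 5 CPM or more in the other 4 libraries, the called ones, those 3 inside and 3 outside the threshold, the widest 3, the longest runs and up to 5 for each gene list. A few further peaks, such as those of Kcnk9, Wt1, Grb10 and Rgs4, were named after their values were seen.

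The Wnt6 and Hmx1 deletions were compared with edgeR 4.0.16 (R 4.3.3, glmQLFit and glmQLFTest, filterByExpr, TMM, a term for each of 3 genotypes, all 7 libraries), with Benjamini-Hochberg adjustment over all tested peaks. In simulated counts, 200 peaks were changed among those with a mean count of at least 20. The spread beyond counting error was set at 1 value for all peaks (a dispersion of 0.02). This comparison recovered 91.0% of peaks changed by 1.5 and 95.0% of those changed by 2 on the log2 scale, with 7 calls among 74219 unchanged peaks. DESeq2 1.42.0 recovered 71.0% and 90.0%, with 0 such calls. Recovery was not measured apart for peaks as weak as the members, whose median mean count was 31.1. Alternatives were DESeq2, other scalings and filters, the 4 libraries alone, a replicate block, downsampling, each library left out, and other thresholds, averages and comparison groups for the rule. DESeq2 without independent filtering was added after seeing the data. Plots were drawn with Python 3.11.15 and matplotlib 3.10.9. At these totals, 3 counts were worth 0.0820 to 0.499 CPM. Such limits cover counting error only, since libraries were amplified by PCR without molecular identifiers.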

Additional observations from a re-analysis of the deposited data

Results flagged for a closer look

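The called members differed between the Wnt6 and Hmx1 deletions by the edgeR test of that difference, at log2 fold changes of -5.12 for B3glct and of -4.09 and -4.23 for the Fry peaks that start at 150163555 and 150165208. Both Hmx1 deletion libraries were high at all 3 peaks and the other 5 libraries were low. Their level in the Hoxa deletion was not under that in the Wnt6 deletion, so they could enter the set only through a high level in the Hmx1 deletion, and the difference was fixed by how they were chosen.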

How the results depend on the processing

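The 3 called peaks kept their direction and their call under every alternative that gave them an adjusted p. Since their difference was fixed by how they were chosen, its persistence is no support for it. DESeq2 called 1 member, B3glct, lower in the Wnt6 deletion, and gave no adjusted p for 957 of the 982 members, the Fry pair among them. Without independent filtering it called 3. Leaving out single libraries gave 3 to 4 called members, all lower in the Wnt6 deletion, the fourth being in Dlgap1 without Hmx1 deletion replicate 2. The median log2 fold change ranged from -0.23 without that library to 0.07 without Hmx1 deletion replicate 1, and was 0.00 with library totals alone. Deviations from the deletion mean had correlations of -0.05 to 0.08 between same-numbered libraries, and numbers were not taken as pairs. In deletions with 2 libraries these deviations mirror each other, so the correlations cannot settle whether numbers are pairs. Replicate 1 was the shallowest library of each deletion and replicate 2 the deepest, so the number also follows depth. With the replicate number as a block, 3 members were called and the median was -0.04. The rule itself was less stable. It found 1495 peaks against the Hmx1 deletion alone, 165 at a mean count of at least 50, 236 at a ratio of at most 0.5 and 1820 after downsampling, of which 680 were members. With TMM-scaled library sizes it found 1058, and with totals over the 17 autosomes 1233, each time with all 982 members. Without single libraries it found 907 to 2050 peaks. The count of members with no overlap ranged from 597 to 769 without single libraries, while the share of all eligible peaks with no overlap went from 5.05% with all libraries to 6.17% to 9.68%. Depth limits the weak members most. Of the largest differences, those at Zfp787, H19, Peg13 and Arl4c rest on far more counts in the other deletions than the median member does.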
